A study of Mus musculus with 99 samples.

Results

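A set of 10 genes of the mammalian circadian clock was followed through 5 brain regions of juvenile mice: the activators Arntl and Clock, the repressors Per1, Per2, Per3, Cry2 and Ciart, the nuclear receptors Nr1d1 and Nr1d2, and the output factor Dbp. They were chosen by gene symbol, and all 10 were found among the 55335 genes counted in each library. The samples were 99 RNA-seq libraries from tissue punches of 3 subcortical sites, the ventrobasal thalamus (VBT), ventral tegmental area (VTA) and nucleus accumbens (NAc), and of 2 cortical ones, somatosensory area S1 and the prelimbic area (PrL). All mice carried a wildtype genotype. Their C57BL/6 dams either had fentanyl, a synthetic opioid, at 10 µg/ml in the drinking water from embryonic day 0 until weaning (fentanyl groups), or had water (water groups). Each region had 4 groups, female water, female fentanyl, male water and male fentanyl, with 5 libraries in each except the S1 male water group with 4. The labels give no hour of collection, litter or exact age, and nothing in them says whether libraries of a group came from separate litters, so p-values measure the spread between these samples.

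The clock is a transcriptional loop that runs in most cells of the body with a period of about a day. ARNTL (also called BMAL1) and CLOCK bind E-box sequences as a pair and switch on the Per and Cry genes, whose proteins return to the nucleus and inhibit the pair. NR1D1 and NR1D2 (REV-ERBα and REV-ERBβ) repress Arntl in a second loop, CIART (also called CHRONO) is a further inhibitor of the ARNTL and CLOCK pair, and DBP carries the rhythm to output genes through D-box sequences. Arntl and the group of Dbp, Nr1d1 and Ciart are known to peak at roughly opposite times of day, so that tissues taken at different hours differ in the balance between them.

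Libraries held between 16515545 and 52069639 counted reads, with a median of 35979923. The VTA male water library numbered 3 had counts for 6333 genes, against 24079 or more in each of the others, and was at a count of 0 for Arntl, Per3, Nr1d1 and Ciart, so 98 libraries were used. In those, the lowest count of any of the 10 genes was 189. Marker genes matched the labelled regions: the summed level of 6 dopamine neuron genes (Th, Slc6a3, Slc18a2, En1, Pitx3, Foxa2) was 335 counts per 1000000 counted reads (CPM) or more in the VTA and at most 69.3 in the other regions. A few punches stood apart. The VBT male water library 3 had the lowest thalamic marker sum of its region (1315 CPM against a median of 3155) and the highest striatal one (714 CPM), and the PrL male water library 3 carried 313 CPM of olfactory bulb markers against a median of 7.54. Choroid plexus genes reached 4492 CPM in the VBT female water library 2 and 1025 CPM in the VTA male water library 2, against region medians of 13.4 and 19.7.

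On the GRCm38 assembly the genes lie, as GENCODE M21 annotates them, with Arntl at chr7:113207465-113314126, Clock at chr5:76209868-76304792, Per1 at chr11:69095217-69109960, Per2 at chr1:91415982-91459324 and Per3 at chr4:151003652-151044665. Cry2 lies at chr2:92403646-92434043, Nr1d1 at chr11:98767932-98775333, Nr1d2 at chr14:18204054-18239127, Dbp at chr7:45705088-45710203 and Ciart at chr3:95878503-95882251. All are protein-coding, and the counts cover their exons. Exons of 4 members overlap exons of a gene on the opposite strand: 18% of the Dbp exon bases are shared with Sphk2, 8.55% of those of Nr1d1 with Thra, 4.67% of those of Cry2 with D930015M05Rik, and 33 bases of Arntl with Gm45355. Without strand, reads from those bases cannot be told apart.

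The clock genes were expressed at different levels in the 5 regions, and the VTA had the lowest mean for 7 of the 10 in water libraries. Arntl, the activator whose loss stops the clock, averaged 18.9 ± 3.13 CPM (SD, n = 9) in the VTA, 32.9 ± 6.36 in NAc and 33.4 ± 6.99 in VBT (n = 10 each), and 42.0 ± 7.05 in PrL (n = 10) and 44.4 ± 7.39 in S1 (n = 9). For Arntl the log2 difference of the VTA from another region ran from -1.32 against S1 to -0.79 against NAc (edgeR adjusted p = 1.93e-07 for NAc), while S1 and PrL differed by 0.09 (edgeR adjusted p = 0.596). Its partner Clock varied less, from 105 ± 11.4 CPM in the VTA to 137 ± 11.1 in S1. Per1, a repressor that light and neuronal activity also induce, ran from 47.7 ± 5.42 CPM in the VTA to 92.6 ± 9.73 in NAc. In bulk punches a lower level can come from fewer cells of a type or from less RNA per cell, and these cannot be told apart.

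Per2, Per3 and the nuclear receptors did not follow one order. Per2, a core repressor, was lowest in VBT at 15.9 ± 5.68 CPM, next in the VTA at 21.5 ± 3.09, and at 35.2 ± 10.4 to 41.1 ± 3.64 in S1 and NAc with PrL between them. The log2 difference of VBT from NAc was -1.26 ± 0.15 (SE, edgeR adjusted p = 1.39e-09), and the gap between VTA and VBT did not pass the threshold (0.31, edgeR adjusted p = 0.0917). Per3 showed the same 2 regions at the bottom, with 39.1 ± 12.2 CPM in VBT and 49.5 ± 11.5 in the VTA, and S1 at the top with 72.9 ± 10.4. Nr1d1, the receptor that represses Arntl, was instead highest in VBT (98.3 ± 16.1 CPM) and lowest in the VTA (42.6 ± 11 CPM), a difference of -1.37 ± 0.14 (edgeR adjusted p = 1.36e-11). Nr1d2 was also highest in VBT, at 176 ± 24.5 CPM, and lowest in PrL, at 114 ± 17.8. Neighbours in these orders often missed the threshold, among them NAc, PrL and S1 for Per2, and VBT and S1 for Nr1d1 (edgeR adjusted p = 0.132).

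The output gene Dbp averaged 45.1 ± 16.5 CPM in the VTA, 52.1 ± 22 in PrL, 65.1 ± 23.9 in S1, 72.5 ± 26.1 in VBT and 83.1 ± 25.6 in NAc. The log2 difference of the VTA from NAc was -0.94 ± 0.20 (SE, edgeR adjusted p = 7.98e-05), whereas no pair among NAc, VBT and S1 passed in that fit. With the label number as a block, all 10 clock genes passed between VBT and S1, Dbp and Nr1d1 among them, where 67.9% of all genes did. Ciart, the further inhibitor, ran from 8.19 ± 3.02 CPM in the VTA to 15.7 ± 5.45 in VBT. Cry2, a repressor with little rhythm of its own in many tissues, ran from 93.4 ± 5.59 CPM in the VTA to 150.0 ± 5.68 in PrL. Per kilobase of exon, the genes ranked in S1 from Arntl at 5.91 ± 0.983 CPM per kb, Per2 at 6.01 ± 1.78 and Ciart at 6.25 ± 3.22 up to Nr1d2 at 27.5 ± 4.95 and Nr1d1 at 29.0 ± 6.68.

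In water libraries, between the VTA and each other region, most of the 10 genes differed past the threshold (edgeR's quasi-likelihood test, adjusted p under 0.05 over the 21468 genes tested), and each that did was lower in the VTA. The count was 8 against VBT, where 52.5% of all genes were called, 10 against S1 (67.6% of all genes), 8 against PrL (66.5%) and 8 against NAc (64.8%). Their median log2 difference was -0.62, -0.77, -0.64 and -0.53 against these 4 regions in turn, while the median over all genes lay between 0.02 and 0.05. Of all genes tested, 48.4% to 47.2% had a difference below 0 in these pairs. In fentanyl libraries Nr1d2 was called higher in the VTA than in PrL (log2 difference 0.30, edgeR adjusted p = 5.94e-05) and in NAc (0.18, edgeR adjusted p = 0.00965). In water libraries neither difference of Nr1d2 passed (0.11, edgeR adjusted p = 0.246 for PrL, and -0.05, edgeR adjusted p = 0.610 for NAc). Among the other pairs of regions in water libraries, 6 of 10 were called between VBT and S1 (68% of all genes), 8 between VBT and PrL (68.4%), 6 between VBT and NAc (67.8%), 3 between S1 and PrL (37.3%), 5 between S1 and NAc (53.3%) and 4 between PrL and NAc (50.3%), in both directions where VBT was one of the pair and between PrL and NAc, where Dbp alone of the 4 was lower in PrL. The 3 between S1 and PrL (Clock, Per3 and Nr1d2) fell to 1 without the S1 male water library 3, the PrL female water library 1 or the PrL male water library 4. With the label number as a block, the count was 5 between S1 and PrL (37.8% of all genes) and 8 between S1 and NAc (54.2%).

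**Figure D1:**
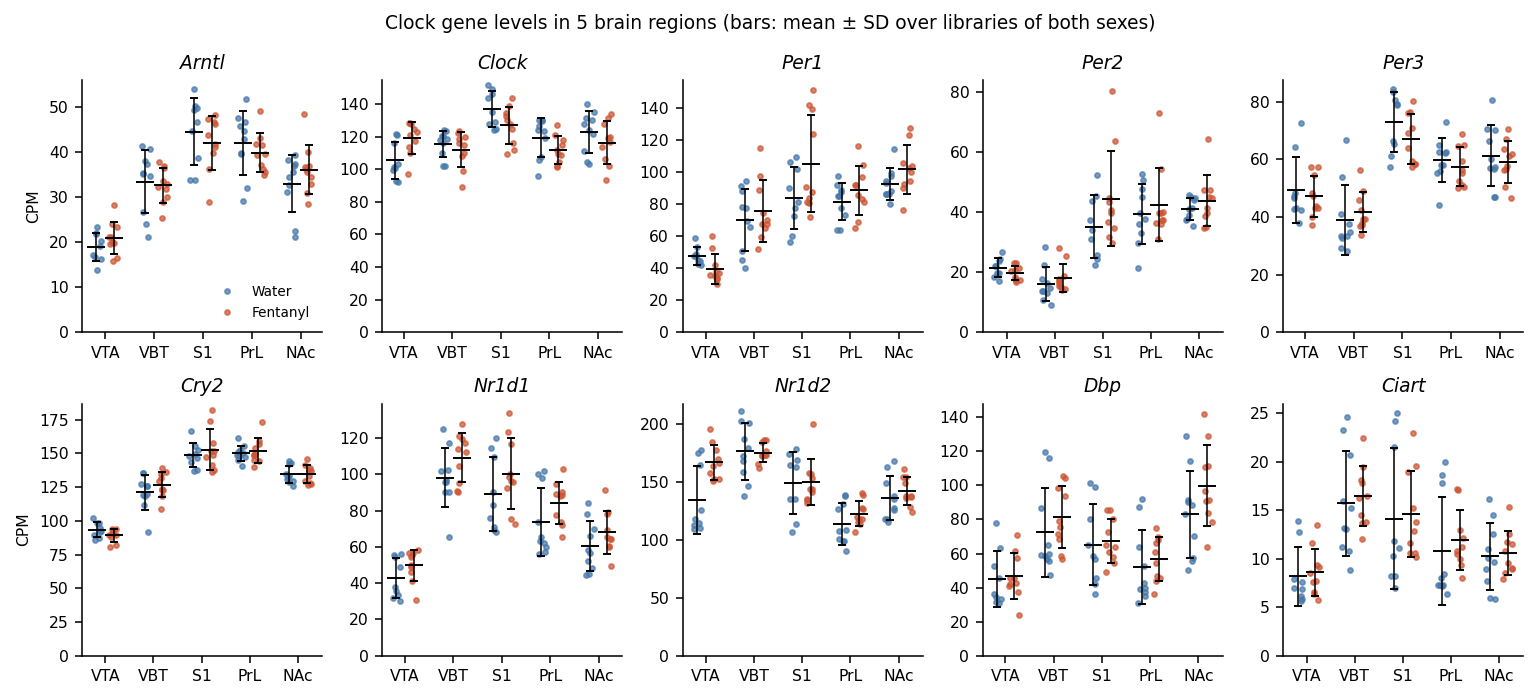
Level of each clock gene (y axis, CPM, starting at 0) in the 5 regions (x axis). Points are libraries of both sexes, water and fentanyl in separate colours, and bars show the mean and SD of each. Among water libraries the VTA has the lowest mean in every panel except Per2 and Per3, where VBT is lowest, and Nr1d2, where PrL is lowest.

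Within a group, Dbp and Ciart were among the members with the widest spread between libraries. The SD of log2 levels within groups was 0.341 to 0.437 for Dbp and 0.304 to 0.519 for Ciart over the 5 regions, above the median gene of each region (0.194 to 0.227). Per2 was as wide in S1 (0.442) and narrow in the VTA (0.170). Cry2 spread by 0.0526 in the VTA and 0.0599 in NAc, which placed it at percentile 0.787 and 0.611 of all genes. Dbp in female water libraries shows the width of this spread. Libraries 1 to 5 stood at 102, 98.9, 80.4, 56.8 and 42.3 CPM in S1 and at 92.0, 87.4, 64.1, 42.5 and 35 CPM in PrL, so libraries 1 and 2 held more than libraries 4 and 5. The same libraries read 33.7, 33.8, 38.5, 50.1 and 44.6 CPM for Arntl in S1, with 1 and 2 lowest and 4 and 5 highest.

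Across the libraries of a region, after the mean of each sex and treatment group was removed, some pairs of clock genes moved together and others in opposition (Pearson's r on log2 CPM, permutation of libraries within groups, adjusted over all 45 pairs in all 5 regions together). In all, 58 passed, 44 with positive and 14 with negative r. Passing pairs numbered 7 in the VTA (19 libraries), 14 in VBT (20), 12 in S1 (19), 8 in NAc (20) and 17 in PrL (20). The permutation test was not run on pairs of other genes, so r itself gives the comparison. An r at least as far from 0 as the smallest that passed in a region was reached by 15 of the 45 pairs in the VTA (13.9% of all pairs of other genes), 16 in VBT (13%), 14 in S1 (4.75%), 8 in NAc (2.7%) and 18 in PrL (5.55%). Each of the 14 negative relations joined Arntl or Clock to Per3, Nr1d1, Nr1d2, Dbp or Ciart, and 33 of the 58 stayed past the threshold whichever 1 library was left out.

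Arntl and Dbp ran opposite to each other in all 5 regions. Their r was -0.85 in PrL (permutation p = 0.000190, adjusted 0.00356), -0.74 in VBT (p = 0.00107, adjusted 0.00963) and -0.65 in S1 (p = 0.00384, adjusted 0.0222). In the VTA it was -0.58 (permutation p = 0.0175, adjusted 0.0606) and in NAc -0.58 (permutation p = 0.0672, adjusted 0.159), which did not pass. Spearman's rho gave -0.82, -0.77, -0.67, -0.63 and -0.45 in the same order of regions (permutation p = 0.000300, 0.000880, 0.00549, 0.00925 and 0.121). Without the 2 libraries farthest from the Arntl median, r was -0.82, -0.77, -0.66, -0.52 and -0.51. Dbp's r with the other 19064 genes tested in PrL had its 5th and 95th percentiles at -0.47 and 0.45, and Arntl lay outside that range. The spread was wider in VBT, where Arntl's r with all other genes spread from -0.79 to 0.81 between these percentiles, and its r with Dbp fell inside that range, but outside the -0.54 to 0.56 of Dbp's r with all other genes there.

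Dbp, Ciart, Nr1d1, Nr1d2 and Per3 had mostly positive relations with each other. Dbp and Ciart had r = 0.90 in NAc (permutation adjusted p = 0.000750), 0.86 in S1, 0.83 in PrL and 0.70 in the VTA, each past the threshold, and 0.55 in VBT (adjusted p = 0.0859), which was not. Nr1d1 followed Dbp at r = 0.84 to 0.88 in the VTA, NAc, S1 and PrL but at 0.08 in VBT. There, Nr1d1 instead went with Cry2 (r = 0.75), a relation that lost its call without the VBT male water library 3, the punch with the low thalamic markers (r = 0.62, permutation adjusted p = 0.0555). Per3 followed Dbp in all 5 regions (r = 0.61 to 0.88), past the threshold in each except NAc. Nr1d2 passed with Ciart and with Dbp in 4 regions each, although its relation to Dbp in the VTA and in NAc lost the call when any of 14 of the 19 and any of 11 of the 20 libraries was left out.

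The activators Arntl and Clock had r = 0.73 in NAc and 0.70 in PrL, both past the threshold and above the 95th percentiles of Arntl's r with all other genes (0.54 and 0.53), 0.62 in S1 and 0.18 in the VTA. In VBT their r of 0.81 passed but lay within the wide range of Arntl's r there. Clock did not always oppose the genes that went with Dbp: its r with Nr1d2 was positive in 4 of 5 regions, up to 0.64. Per1 and Per2 followed each other, with r from 0.51 in the VTA to 0.70 in PrL and 4 of 5 regions past the threshold, while neither passed with Dbp anywhere (r = -0.15 to 0.25 for Per1). In VBT, Ciart passed with Per1 (r = 0.79) and with Per2 (r = 0.64), and Per2 passed with Per3 (r = 0.66). In 3 regions 1 library weighed on this pair: without the male fentanyl library 1, r was 0.45 in VBT, 0.45 in NAc and 0.60 in PrL, and the calls in those 3 regions were lost. The call also went without 1 other library in VBT (male water 1), 1 in PrL (male fentanyl 4) and 12 in NAc, and without any of 4 libraries in the VTA (female fentanyl 4 and 5, female water 5 and male fentanyl 4). That library was also the highest of its region in the summed level of 9 immediate early genes (Fos, Fosb, Junb, Egr1, Egr2, Arc, Npas4, Nr4a1, Dusp1, with Egr2 at a count of 0 in all), at 1631 CPM in S1, 1104 in PrL, 792 in NAc and 219 in VBT, against next-highest values of 1079, 700.1, 646 and 208. It was highest as well in the sum of 8 glucocorticoid-responsive genes (Fkbp5, Sgk1, Tsc22d3, Zbtb16, Errfi1, Cdkn1a, Sult1a1, Plin4) in all 5 regions. The part of either in the Per1 and Per2 values was not tested.

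**Figure D2:**
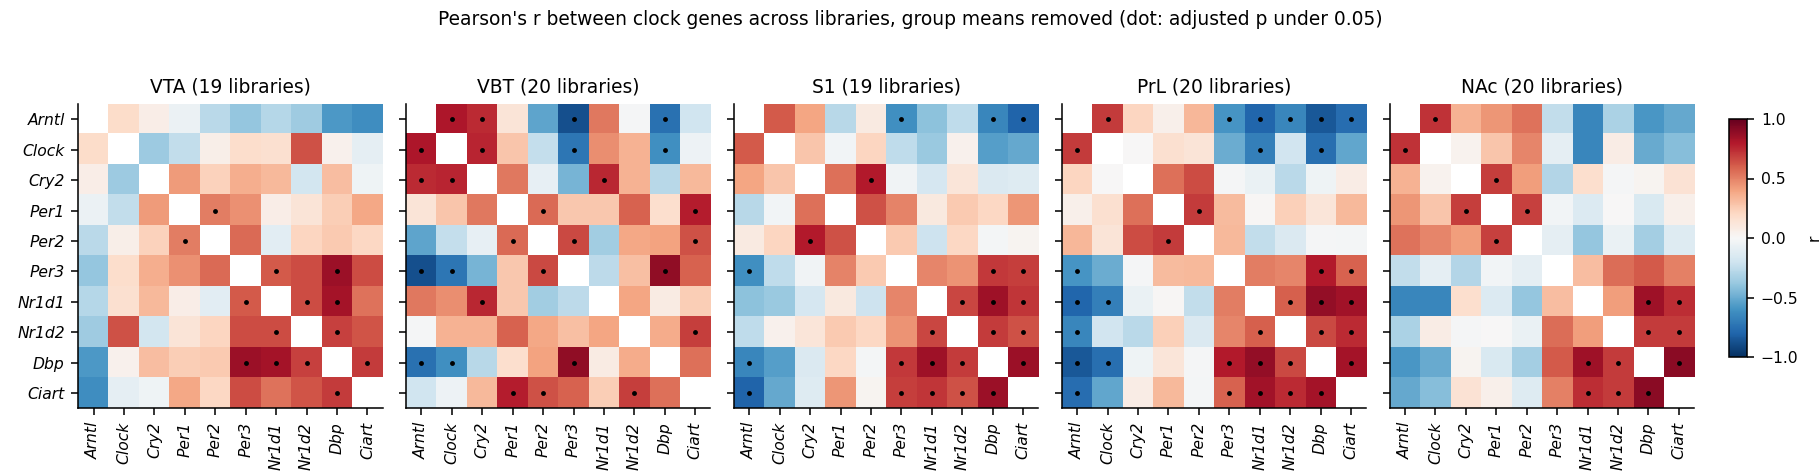
Pearson's r between each pair of clock genes (both axes) across the libraries of a region, with group means removed. Red is positive, blue negative and a dot marks an adjusted p under 0.05. Arntl is blue against Per3, Dbp and Ciart in every panel, and the lower right block of Per3, Nr1d1, Nr1d2, Dbp and Ciart is red except for Per3 with Nr1d1 in VBT.

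The upstream sequences of 2 genes that went with Dbp are shown because they carry the motifs through which the loop is known to act, an E-box (CACGTG) for ARNTL with CLOCK and a D-box (TTATGTAA or TTACGTAA) for DBP. Both motifs were sought on both strands in the 250 bases upstream of each RefSeq start site on GRCm38.p6, with 9 of the 10 members matched at 13 start sites. An E-box was in 6.02% and a D-box in 0.931% of the 32851 such windows of all genes. Capitals mark the motifs, and each line reads 5′ to 3′ on the gene's own strand, Ciart at chr3:95882229-95882478 (minus strand) and Per3 at chr4:151044666-151044915 (minus strand).
Ciart: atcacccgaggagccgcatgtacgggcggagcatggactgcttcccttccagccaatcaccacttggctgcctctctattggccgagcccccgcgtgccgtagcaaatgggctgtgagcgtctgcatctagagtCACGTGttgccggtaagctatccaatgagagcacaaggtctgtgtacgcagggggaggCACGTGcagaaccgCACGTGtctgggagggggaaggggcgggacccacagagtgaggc
Per3: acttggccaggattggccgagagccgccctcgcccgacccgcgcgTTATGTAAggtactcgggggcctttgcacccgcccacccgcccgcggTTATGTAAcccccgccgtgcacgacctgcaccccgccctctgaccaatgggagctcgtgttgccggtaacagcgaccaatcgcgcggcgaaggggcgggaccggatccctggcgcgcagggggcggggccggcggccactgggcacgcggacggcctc

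Ciart holds 3 E-boxes, the nearest 39 bases and the farthest 116 bases before the start, and Per3 holds 2 D-boxes between 151 and 205 bases before it. The first of the Per1 start sites has 1 E-box, 161 to 166 bases upstream. The windows of Arntl, Clock, Cry2, Nr1d1, Nr1d2 and Dbp hold neither motif. The core AGGTCA, part of the element bound by NR1D and ROR receptors, was found once each upstream of Per1, Nr1d2 and Clock, and 14% of all windows hold it. These matches describe letters in a short window and say nothing of binding in these samples.

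Among the 17585 genes tested in all 5 regions outside the 10, those most like Dbp by mean r over the 5 regions were Tef (0.73), Tspan4 (0.69), Usp2 (0.67), Bhlhe41 (0.67) and Dgat2 (0.62). Tef encodes a transcription factor of the same family as DBP, Usp2 a deubiquitinase and Bhlhe41 an E-box repressor, and these 3 stand on the list of 20 other clock pathway genes used here. The most opposed were Cysltr2 (-0.76), Nfil3 (-0.66), Calr (-0.65), Fam124b (-0.64) and Cdkn1a (-0.64). Nfil3, also on that list, encodes the repressor of D-box sequences. Arntl's own mean r with Dbp, -0.68, fell between those of Cysltr2 and Nfil3. The genes most like Arntl were Fam124b (0.71), BX649560.1 (0.68), Mprip (0.67), Rbfox2 (0.64) and Unc79 (0.63), and the most opposed were Slc35b2 (-0.67), Bmf (-0.65), Lamp1 (-0.60), Pdlim2 (-0.60) and Syngr2 (-0.60). Each mean is over 98 libraries in 5 regions, and libraries differed in depth and in marker content, so these values are a description.

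Libraries of one sex and treatment that bear the same number in different regions varied together in most of the clock genes. The labels do not say that a number stands for an animal. For each gene and each of the 10 pairs of regions, the deviations from the group means were correlated over the 18 to 20 same-numbered libraries, and 56 of the 100 relations passed (permutation within groups, adjusted over 100), all 56 with positive r. An r as far from 0 as the smallest of these was found in 3.75% of the same relations over all other genes. Dbp passed in all 10 pairs of regions, with r from 0.68 between S1 and NAc to 0.94 between the VTA and VBT (permutation adjusted p = 0.000500 for the latter). Its mean r of 0.80 compares with a median of 0.029 over 17585 other genes, whose 5th and 95th percentiles were -0.11 and 0.27. Ciart had a mean r of 0.67 with 9 pairs past the threshold, Arntl 0.63 with 6, Per1 0.59 with 7, Per3 0.57 with 6, Per2 0.56 with 6 and Nr1d1 0.48 with 6. Nr1d2 was lower, at 0.39 with 3. Clock had 0.17 with 2 pairs and Cry2 0.03 with 1, at percentiles 87.3 and 49.3 of all genes. With offsets for GC content the mean r of Clock was 0.35.

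For Dbp between the VTA and VBT, Spearman's rho was 0.94 (permutation adjusted p = 0.001000), and r without the 2 libraries farthest from the median was 0.93. Between S1 and NAc the latter was 0.51. Male fentanyl library 1 had the lowest Dbp of its group in each region, at 23.7 CPM in the VTA, 58.3 in VBT, 48.8 in S1, 64.1 in NAc and 36.3 in PrL. Female water libraries 1 and 2 were above 4 and 5 for Dbp in every region. Over all genes, checked in water libraries alone, no pair of regions had every same-numbered correlation over 0.1. Values of the 5 regions are therefore not 5 independent sets for the genes that varied together in this way, which Clock and Cry2 hardly did.

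**Figure D3:**
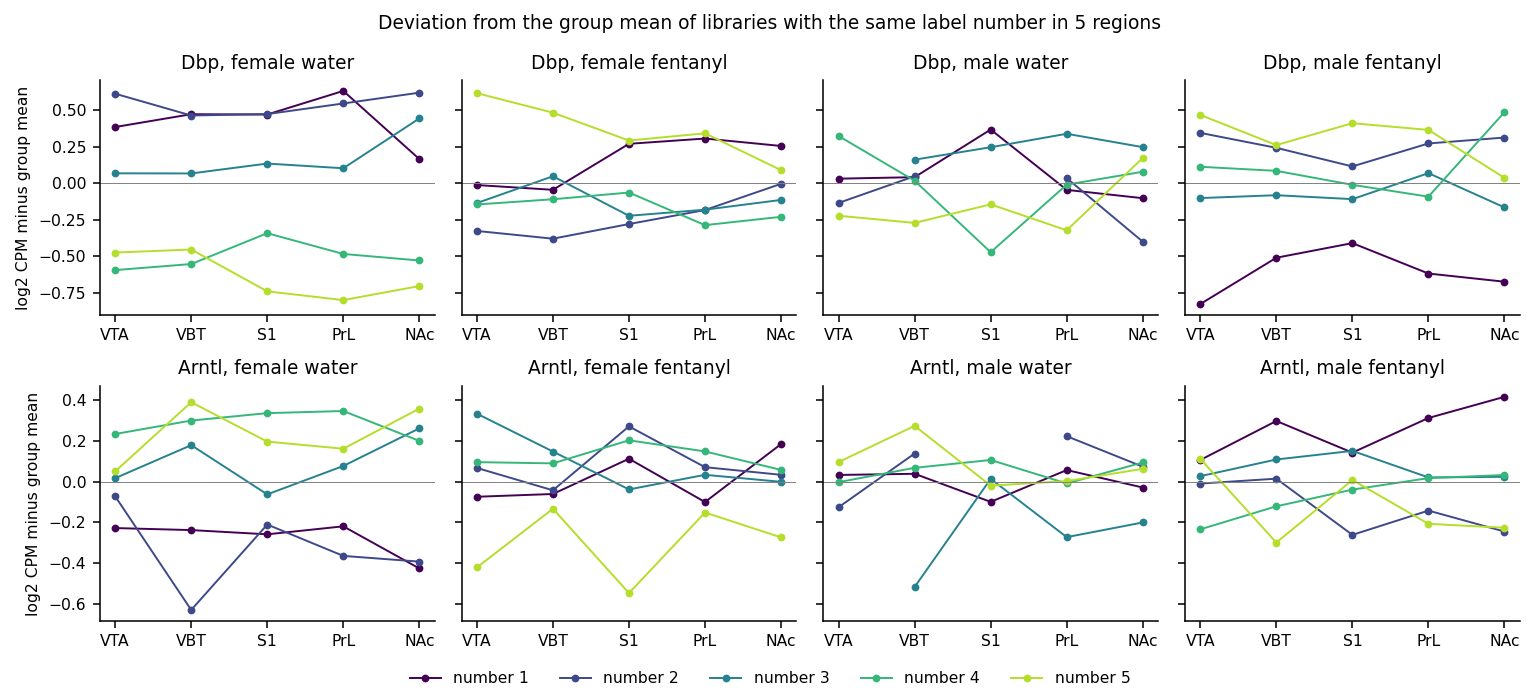
Deviation of log2 CPM from the group mean (y axis) in the 5 regions (x axis) for Dbp (top) and Arntl (bottom) in the 4 groups. Each line joins libraries with 1 label number, and a gap marks a library that is absent or left out. In female water libraries numbers 1 and 2 are above the mean for Dbp and below it for Arntl in every region, and in male fentanyl libraries number 1 is below for Dbp and above for Arntl.

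Against this background of shared variation, perinatal fentanyl went with few calls among the clock genes. In females 0 of 10 passed in any region, and in males 2 passed in the VTA and 0 elsewhere (edgeR's quasi-likelihood test, adjusted p under 0.05 over all genes tested). In VTA males 22% of all 19822 genes tested were called, so 2 of 10 is near the background. Nr1d2 rose from 110.0, 115, 126 and 109 CPM in the 4 male water libraries to 152, 157, 163, 177 and 195 CPM in the 5 male fentanyl libraries. Its groups did not overlap, and the log2 fold change was 0.60 ± 0.12 (SE, edgeR adjusted p = 0.00322). Clock rose from 92.9, 103, 99.8 and 101 CPM to 121, 117, 125, 114 and 128 CPM, again without overlap, by 0.32 ± 0.08 (edgeR adjusted p = 0.0105). Averaged over the sexes both passed too, Nr1d2 at 0.36 (edgeR adjusted p = 0.00445) and Clock at 0.20 (edgeR adjusted p = 0.0171), with 23.1% of all genes called. That count of 2 became 1 with offsets for GC content, and 0 with those and the label number as a block or with the VTA male water library 3 kept. Over all genes the average had 676, 269 and 60 calls in these fits in turn, against 4580.

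The VTA male groups also differed in a trend across genes. The rank correlation across genes between GC content and a library's deviation from the region mean was 0.40 to 0.51 in the 4 male water libraries and -0.36 to -0.07 in the 5 male fentanyl ones. Female water libraries 4 and 5 were like the male water ones (0.52 and 0.43), and the other 8 female libraries were below 0. The exons of Clock and Nr1d2 have the lowest GC content of the 10 genes (41.5% and 44.0%, against 48.3% or more). With offsets for GC content Clock lost its call (0.11, edgeR adjusted p = 0.277) and Nr1d2 kept it (0.44). With the label number as a block as well, 0 of the 10 passed (Nr1d2 at 0.45, edgeR adjusted p = 0.0752), and 0 passed when the VTA male water library 3 was kept. Over all genes, males had 503 calls with the GC offsets, 29 with the block as well and 42 with that library kept, against 4355. In treatment fits the block joins fentanyl and water libraries of the same sex and number, which come from different dams. It does not join regions, and it leaves fewer degrees of freedom. Per1 read lower in VTA male fentanyl libraries, 35.5, 37.0, 35, 30.0 and 41.7 CPM against 47.6, 44.2, 42.6 and 41.8 CPM with no overlap, but did not pass (-0.26 ± 0.14, edgeR adjusted p = 0.198), and its fold change was 0.10, above 0, with the offsets for GC content and the block. It was the third gene of the 10 whose VTA male groups did not overlap, where 22.4% of all genes tested had such groups.

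Outside the VTA no clock gene passed in males, yet Dbp, Ciart, Nr1d1 and Nr1d2 had a positive fold change in all 5 regions, and kept that sign under each alternative fit and without any 1 library. The other members did not all rise. Male fold changes of Arntl were -0.13, -0.19, -0.21, -0.14 and 0.08 in the VTA, VBT, S1, PrL and NAc. Clock, higher in the VTA, was at -0.12, -0.02, -0.12 and -0.12 in VBT, S1, PrL and NAc. Cry2 ran from -0.09 in the VTA to 0.12 in VBT. Dbp stood in VBT at 58.4, 58.9, 64.8, 56.9 and 47.5 CPM in male water libraries and at 58.3, 98.8, 79.3, 93.6 and 106 CPM in male fentanyl libraries, where 4 of the 5 were above every water library. In PrL the values were 37.7, 39.4, 52.7, 39.7 and 30.9 CPM and 36.3, 69.9, 60.9, 54.4 and 74.8 CPM, and fentanyl library 1 was the lowest of its group in both regions. The log2 fold changes of Dbp were 0.59 ± 0.20 in VBT, 0.59 ± 0.25 in PrL, 0.50 ± 0.24 in NAc, 0.40 ± 0.25 in S1 and 0.38 ± 0.28 in the VTA (SE), with edgeR adjusted p from 0.294 to 0.781. The S1 value was 0.26 without male water library 4, and the VTA value was 0.66 with offsets for GC content.

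Ciart showed the one pair of groups outside the VTA that did not overlap. In PrL it read 7.27, 6.36, 8.45, 8.01 and 7.16 CPM in male water and 9.35, 12.9, 9.99, 10.8 and 17.1 CPM in male fentanyl libraries, a fold change of 0.71 ± 0.27 on the log2 scale (edgeR adjusted p = 0.359), where 2% of all genes had groups without overlap. In VBT, Ciart read 15.2, 13.1, 8.88, 10.8 and 11.2 CPM in male water and 19.5, 17.8, 13.8, 16.3 and 18.2 CPM in male fentanyl libraries, with fentanyl library 3 alone among the water values. Its fold changes in the VTA, VBT, S1 and NAc were 0.50, 0.51, 0.57 and 0.36. Nr1d1 gave 0.40, 0.23, 0.45, 0.47 and 0.37 in the VTA, VBT, S1, PrL and NAc, and Nr1d2 gave 0.14, 0.26, 0.20 and 0.22 in VBT, S1, NAc and PrL. Single libraries moved some of these sizes. Without 1 male library, Nr1d1 was 0.62 in the VTA (water 4) and 0.13 in VBT (water 3, the punch with low thalamic markers). Nr1d2 in S1 was 0.14, 0.17 or 0.43 without fentanyl 5, water 5 or water 3, and Ciart in NAc was 0.20 without fentanyl 4. In PrL, Nr1d1 read 63.2, 55.9, 73.6, 65.3 and 62.1 CPM in male water and 65.7, 103, 89.4, 88.6 and 90.2 CPM in male fentanyl libraries, where again all but fentanyl library 1 lay above every water library. In the remaining male comparisons 0 of the 10 had groups without overlap, against 0.967% of all genes in VBT, 1.72% in S1 and 3.5% in NAc. The count was 0 in females, where the share of all genes was 1.61% in the VTA, 2.06% in VBT, 4.22% in S1, 0.755% in NAc and 2.18% in PrL.

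The repressors Per1 and Per2 had positive fold changes in males of VBT, S1 and PrL. Per2 read 17.7, 13.6, 13.6, 10.7 and 9.08 CPM in VBT male water and 27.9, 17.9, 15, 18.6 and 25.2 CPM in male fentanyl libraries (0.68 ± 0.21, edgeR adjusted p = 0.326). In S1 it read 52.4, 24.4, 31.2 and 22.4 CPM and 80.4, 43.4, 34.7, 31.7 and 63.8 CPM, with libraries 1 and 5 high (0.67 ± 0.30, edgeR adjusted p = 0.695). The groups overlapped in both regions. In PrL the fold change of Per2, 0.33, turned to -0.15 with the share of reads outside exons as a covariate. Per1 in VBT read 78.1, 65.6, 44.8, 40.0 and 50.7 CPM in water and 115, 74.6, 67.8, 67.6 and 69.9 CPM in fentanyl libraries, with fentanyl library 1 far above the rest (0.49 ± 0.21, edgeR adjusted p = 0.499). Per3, the repressor that followed Dbp, read 34.8, 33.4, 37.5, 29.1 and 28.3 CPM and 36.8, 42.5, 39.3, 45.8 and 56.4 CPM there (0.42 ± 0.16, edgeR adjusted p = 0.437), the overlap coming from fentanyl library 1 alone. Elsewhere the male fold change of Per3 was 0.15 in the VTA, 0.01 in S1, 0.13 in PrL and -0.14 in NAc. Male fentanyl library 1, the one with the highest immediate early genes, weighed on these means: without it the fold change of Per2 was 0.10 rather than 0.33 in PrL and 0.45 rather than 0.67 in S1 (where it was 0.99 without male water library 1), and that of Per1 was 0.29 rather than 0.49 in VBT.

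Before adjustment, edgeR's p was under 0.05 for 5 of the 10 genes in VBT males (Per1, Per2, Per3, Dbp and Ciart), against 8.7% of all genes, and for 5 in PrL males (Per1, Nr1d1, Nr1d2, Dbp and Ciart), against 12%. The counts were 3 in the VTA (34.7% of all genes), 3 in S1 (7.14%) and 2 in NAc (17.6%). With the label number as a block, PrL had 3 (11%) and NAc 1 (15.5%). With the share of reads outside exons as a covariate the counts were 2 in PrL (7.42%), 1 in S1 (7.72%), 1 in NAc (20.4%) and 6 in the VTA (38.6%), which also had 6 with offsets for GC content (18.1%). At the adjusted threshold 0% of all genes were called in VBT males, 0% in S1 and 0% in PrL, and 0.662% in NAc. DESeq2's Wald test also called 0 of the 10 in these 4 regions, where it called 0.276% of all genes in VBT, 0% in S1, 5.72% in NAc and 0.182% in PrL.

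In females Dbp and Ciart had fold changes between -0.31 and 0.07. Dbp gave log2 fold changes of -0.15, -0.22, -0.16, -0.22 and 0.07 in the VTA, VBT, S1, PrL and NAc, with SEs of 0.20 to 0.26, and Ciart gave -0.20, -0.31, -0.23, -0.24 and -0.19. These moved with single libraries: over leaving out 1 library, Dbp ran from -0.34 to 0.03 in the VTA (above 0 without female water 2), -0.36 to -0.09 in VBT, -0.31 to -0.04 in S1, -0.37 to -0.05 in PrL and -0.08 to 0.24 in NAc (below 0 without female fentanyl 1, water 4 or water 5). Ciart stayed below 0, between -0.47 and -0.02. The female value farthest from 0 among the 50 was that of Arntl in the VTA, where water libraries read 13.9, 16.3, 17.2, 20.1 and 16.7 CPM and fentanyl libraries 21.0, 23.4, 28.1, 24.0 and 16.5 CPM (0.41 ± 0.11, edgeR adjusted p = 0.265), the fifth fentanyl library alone lying among the water values. Unadjusted p was under 0.05 for 2 of the 10 in the VTA (Arntl and Per2, 12.7% of all genes), 1 in VBT (Nr1d2, 7.86%), 2 in S1 (Clock and Per3, 13.9%), 0 in PrL (9.53%) and 0 in NAc (9.03%). Of all genes, 0% were called in VTA females, 0% in VBT, 0.142% in S1, 0% in NAc and 0.021% in PrL.

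The difference between the sexes was tested as an interaction (male fold change minus female fold change), and 0 of the 10 passed in any region. Among all genes the share called was 0% in the VTA, 0% in VBT, 0% in S1, 0% in NAc and 0% in PrL (edgeR). DESeq2 also called 0 of the 10 in the interaction, where its share of all genes was 0.0303% in the VTA, 0.578% in VBT, 0% in S1, 3.62% in NAc and 0% in PrL. In females it called 0 of the 10 too, with 0.481%, 0.165%, 2.44%, 0.093% and 0.251% of all genes called in the same order of regions. For Dbp the interaction was 0.80 ± 0.28 in VBT (edgeR adjusted p = 0.402) and 0.80 ± 0.35 in PrL (edgeR adjusted p = 0.999), and for Ciart 0.82 ± 0.26 in VBT and 0.95 ± 0.38 in PrL. Before adjustment, p was under 0.05 for 6 of the 10 in VBT (8.03% of all genes), 5 in PrL (2.59%), 4 in the VTA (11.4%), 1 in S1 (4.14%) and 0 in NAc (15.2%). With the label number as a block the 5 in PrL became 1, where 2.33% of all genes had such a p. Averaged over the sexes 0 of the 10 passed outside the VTA, where 0% of all genes were called in VBT, 1.03% in S1, 0% in NAc and 0.697% in PrL. The water groups of the sexes were not alike to begin with: mean Dbp was higher in female than in male water libraries in each region, for example 64.2 against 40.1 CPM in PrL, where female libraries 1 to 3 were the high ones. That sex difference was not tested.

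**Figure D4:**
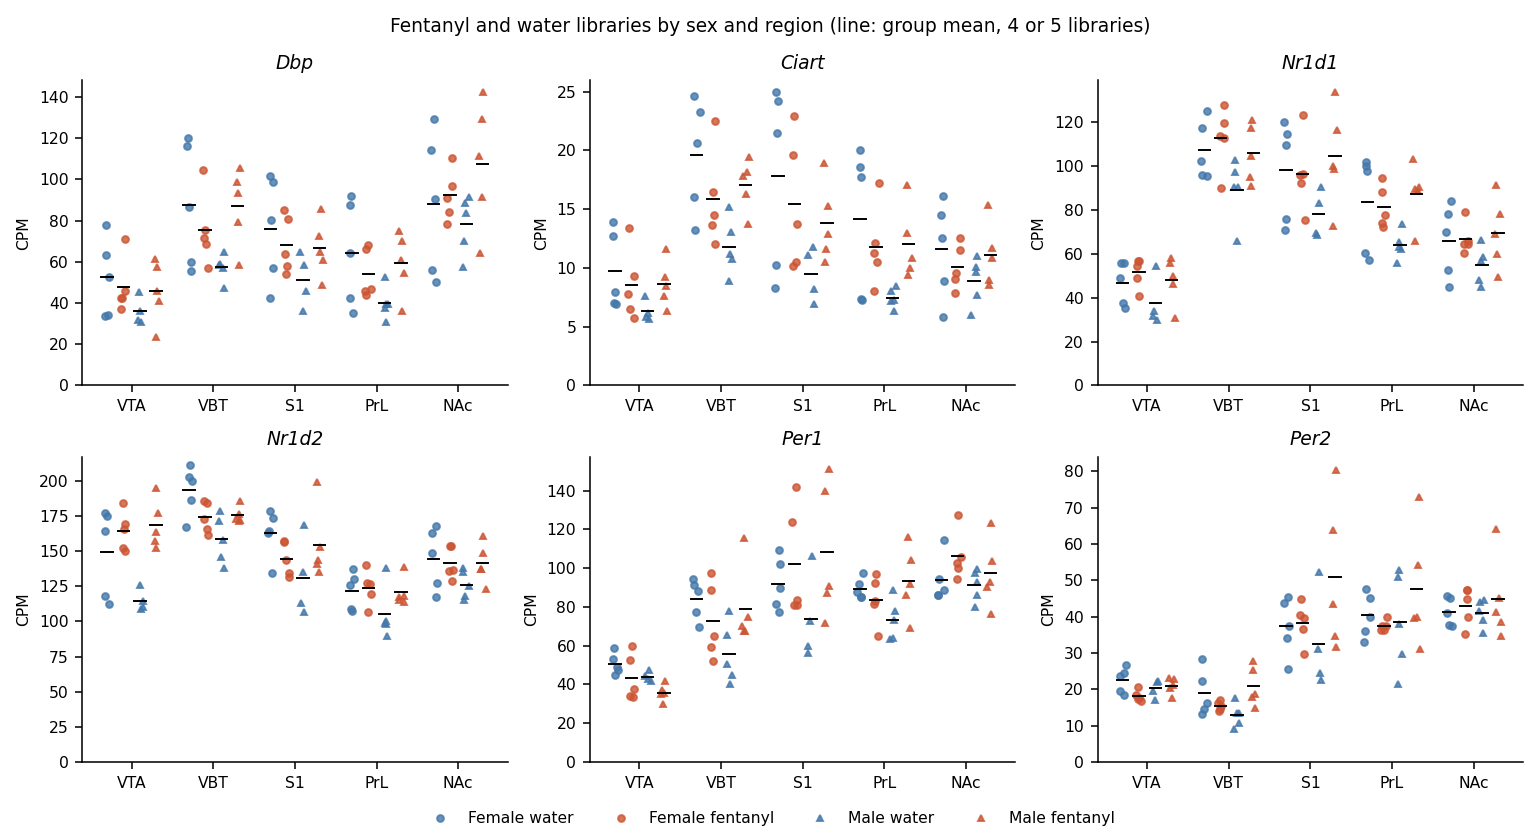
Level of 6 clock genes (y axis, CPM, starting at 0) in each library of the 5 regions (x axis). Circles are females, triangles males, blue water and red fentanyl, and a black line is the group mean. Male water triangles sit low for Dbp and Ciart, and female water circles spread widely.

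**Figure D5:**
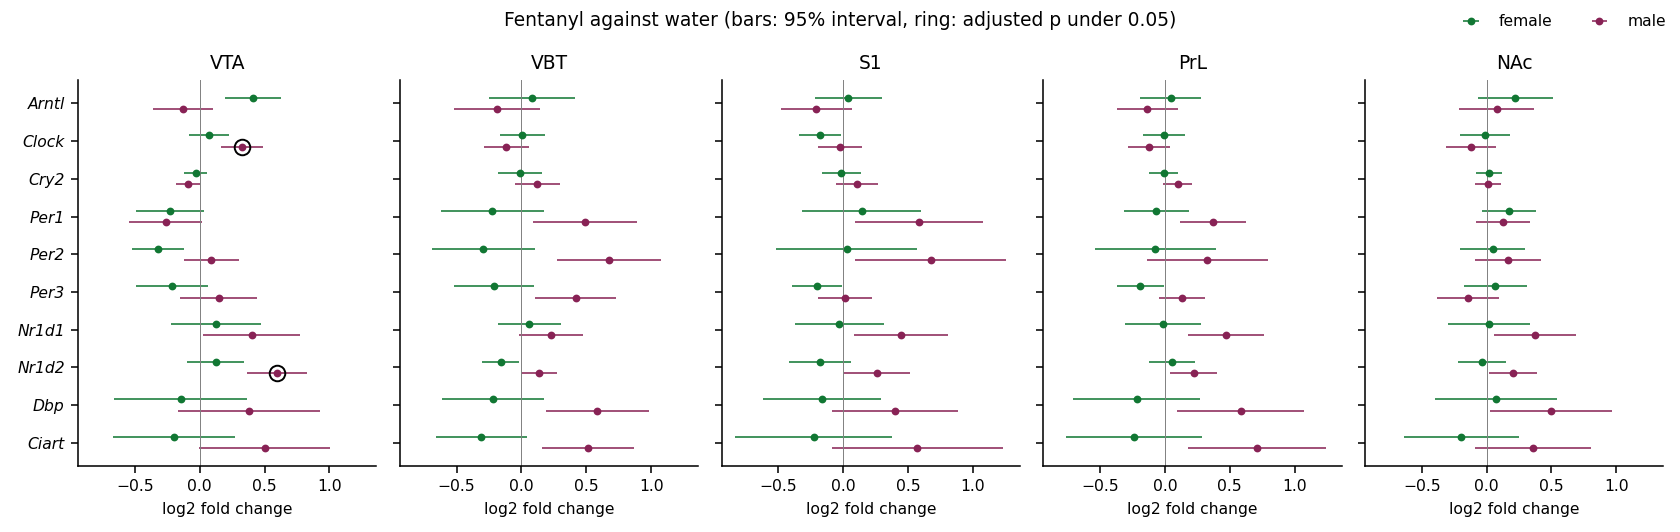
Log2 fold change of fentanyl over water (x axis) for each clock gene (y axis) in 5 regions, females in green and males in purple. Bars are 95% intervals from the standard error, and rings mark an adjusted p under 0.05, which only Clock and Nr1d2 in VTA males have. Male values of Dbp, Ciart, Nr1d1 and Nr1d2 lie right of 0 in every panel.

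Since same-numbered libraries varied together, the fold changes of the 5 regions do not count as 5 repeats. A single value per number was therefore formed as the mean over regions of the deviation from the region mean, and the 5 fentanyl and 5 water numbers of each sex (male water numbers 2 and 3 over 4 regions) were compared by an exact two-sided permutation test over their 252 splits, a test added after the relations had been seen. For Ciart in males these values were -0.30, -0.55, -0.39, -0.41 and -0.43 for water numbers 1 to 5 and -0.06, 0.19, -0.18, 0.25 and 0.33 for fentanyl numbers 1 to 5 on the log2 scale. The groups did not overlap, and the difference of 0.52 had the smallest p that 252 splits allow (exact p = 0.00794, adjusted over 20 tests 0.159). Dbp in males gave -0.27, -0.44, -0.09, -0.34 and -0.49 for water and -0.48, 0.39, 0.06, 0.25 and 0.44 for fentanyl numbers, with fentanyl number 1 low and the other 4 above every water number (difference 0.46, exact p = 0.0476, adjusted 0.238). Nr1d2 differed by 0.27 (exact p = 0.0159, adjusted 0.159) and Nr1d1 by 0.38 (exact p = 0.0317, adjusted 0.212). After adjustment 0 of the 20 tests passed. In females the differences ranged from -0.19 for Ciart to 0.17 for Arntl, with exact p from 0.230 upward.

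A list of 20 other genes of the clock pathway was tested in every region. In VTA males 4 of the 20 passed, 3 higher and 1 lower, where 22% of all genes were called. Among them Bhlhe40, an E-box repressor, rose by 0.46 ± 0.12 (edgeR adjusted p = 0.0109) and Rora, an activator of Arntl, by 0.40 ± 0.11 (edgeR adjusted p = 0.0144) on the log2 scale. Csnk1e, a kinase of PER proteins, fell there, with a log2 fold change of -0.23 ± 0.06 (edgeR adjusted p = 0.00795). In the average over the sexes in the VTA 5 passed, 4 higher and 1 lower, against 23.1% of all genes. Bhlhe40, Rora and Csnk1e were among these, as was Tipin at 0.26 ± 0.09 (edgeR adjusted p = 0.0370). These VTA calls are from the fit without GC offsets. With GC offsets, calls over all genes fell from 4355 to 503 in VTA males and from 4580 to 676 in the average. With the label number as a block as well, males had 29. The values of these pathway genes in those fits are not reported here. In PrL the average called Arntl2, a paralog of Arntl, at -0.29 ± 0.06 (edgeR adjusted p = 0.0284), where 0.697% of all genes were called. No gene was called in that PrL average with the share of reads outside exons as a covariate, so this call was lost there. In females, in the interaction and in males outside the VTA 0 of the 20 passed. The median fold change of the 20 was 0.12 in VTA males and between 0.02 and 0.05 in males of the other regions, while that of the 10 members was 0.24 in the VTA, 0.32 in VBT, 0.33 in S1, 0.15 in NAc and 0.28 in PrL, against medians over all genes of -0.008 to 0.004. In females the median of the 10 was -0.09, -0.19, -0.10, 0.03 and -0.04 in the same order, against -0.010 to 0.007 over all genes. Many of the 10 genes varied together within groups, as did same-numbered libraries of different regions. These medians therefore rest on neither independent genes nor independent regions, and they were not tested. In VTA males the choroid plexus markers Ttr and Folr1, the endothelial marker Cldn5, the microglial marker P2ry12 and the immediate early gene Egr1 were among the genes called as well. Only markers that passed are named, where 22% of all genes were called, so these calls do not show a shift of a cell type. The part of these genes in the clock gene values was not tested.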

How the data were processed

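The deposited data are gene counts, 1 table per library, that the authors made with HTSeq against GRCm38, per the submitters' processing notes. The aligner, the annotation release and the strand setting are not given in the sources used here. Per the labels' protocols, punched tissue went through Trizol and a MicroElute column, and SMART-Seq v4 was run on 10 ng of RNA per sample. The 5 lines of unassigned reads were left out of library totals. Of the 55335 gene IDs, 55154 matched GENCODE M21, which gave symbols, exon lengths and coordinates. CPM is the count per 1000000 counted reads of a library.

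Treatment was tested in each region with edgeR 4.0.16 (R 4.3.3): TMM, filterByExpr, robust quasi-likelihood fit over 4 groups of sex and treatment, and Benjamini-Hochberg adjustment over all genes tested, called at 0.05. Regions were compared in water libraries in a fit over all 5. Relations used log2 TMM CPM with a prior count of 2, group means removed, and 100000 permutations of libraries within groups (numpy 2.4.6, scipy 1.17.1, pandas 2.3.3, Python 3.11.15, with matplotlib 3.10.9 for plots). The VTA male water library with 6333 genes detected was left out (minimum 10000). Every other library had 24079 or more, and a count of 189 or more for each of the 10 genes. Counting error was not compared with the spread between libraries. The scripts were tested on simulated data with 200 changed genes.

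Alternatives were DESeq2 1.42.0 size factors and Wald test, no filter on low counts, the label number as a block, offsets for GC content or exon length, the share of reads outside exons as a covariate, the excluded library kept, and each library left out in turn. For relations they were values not centred, CPM by totals plus 1, Spearman's rho, and each treatment alone. The test over label numbers was chosen after seeing the data. All 10 genes are reported, genes of the other lists are named where they passed (1 of the pathway list is not reported here), and the 5 genes most and least like Dbp and Arntl are named by mean r over regions. The 10 genes and the lists were chosen with earlier results of these data known.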

Additional observations from a re-analysis of the deposited data

Results flagged for a closer look

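In 200 groups of 4 or 5 libraries (10 genes in 20 groups), 11 held a library whose gap to the others passed Dixon's 95% critical value. Chance alone gives about 1 in 20, or 10 here.

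A pair of these values came from the VTA male water library 4, which was highest of its group for Nr1d1 at 54.5 CPM (others 29.9 to 33.7) and for Per3 at 46.5 CPM (others 42.5 to 43.1). Male fentanyl library 5 was highest for Nr1d2 in S1 at 199 CPM (others 135 to 153) and in PrL at 139 CPM (others 114 to 118). The PrL male water library 3, which carried olfactory bulb markers, was highest for Nr1d2 at 138 CPM (others 89.8 to 100.4). The VBT male fentanyl library 1, highest of its region in immediate early genes, was highest for Per1 at 115 CPM (others 67.6 to 74.6).

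Dbp stood at 70.8 CPM in the VTA female fentanyl library 5 (others 37.1 to 45.8). Per1 stood at 114 CPM in the NAc female water library 3 (others 86.3 to 94.3), and Nr1d1 at 79.1 CPM in the NAc female fentanyl library 1 (others 60.4 to 65.7). The low values were Arntl in the VTA male fentanyl library 4, at 15.7 CPM (others 19.6 to 21.0), and Per3 in the S1 female water library 5, at 65.2 CPM (others 79.2 to 84.5).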

How the results depend on the processing

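Of 41 results with 1372 values under the alternatives, 1330 kept their direction and their side of the threshold, a count of calls being taken as kept within 1.5 times the reported one. Of the kept values, 1082 were counts of clock genes called. In the treatment results that count was 0 and stayed 0, except in VTA males and the VTA average. The total therefore says little about the calls that were made. In VTA males the 2 clock genes called became 1 with GC offsets, 0 with GC offsets and the replicate block, 4 with the share of reads outside exons as a covariate and 0 with the excluded library kept, and in the VTA average 1, 0 and 0 under the first, second and last of these. Over all genes, VTA males had 503, 29, 5527 and 42 calls in these fits in turn, against 4355. The VTA average had 676, 269 and 60 in the first, second and last, against 4580. Leaving out 1 library gave 2 to 3 clock genes called in both. The replicate block alone changed no treatment call among the 10 genes. The labels do not say that a fentanyl and a water library of the same number share anything. Over all genes, correlations of same-numbered deviations between fentanyl and water libraries of a region and sex exceeded 0.1 in at most 2 of 5 pairs. Own numbers were the best match in 0 to 4 of them, with the 4 in VTA females. With the block, clock genes called were 10 between VBT and S1 (67.9% of all genes), 5 between S1 and PrL (37.8%) and 8 between S1 and NAc (54.2%). S1 against PrL gave 1 in fentanyl libraries and 1 to 3 without 1 library. Among the region differences called, those that changed sign were Nr1d2 between VTA and S1 in fentanyl libraries (0.053) and Clock between VBT and S1 with GC offsets (0.045).

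Pairs called in the VTA were 14 not centred, 11 with GC offsets, 1 in water and 4 in fentanyl libraries alone, and 4 to 8 without 1 library (4 without male water 4). They were 23 not centred, 8 in water and 6 in fentanyl libraries in VBT, 5 and 0 in S1, 2 and 8 in PrL, and 2 and 1 in NAc. Fits on 1 treatment use fewer libraries. The r of Arntl with Dbp passed in the VTA with GC offsets (-0.65), exon length offsets (-0.69), Spearman's rho (-0.63) and without some single libraries (range -0.67 to -0.45), and turned to 0.30 with the excluded library kept. It did not pass in water alone in VBT (-0.82), S1 (-0.85) and PrL (-0.78), or in fentanyl alone in VBT (-0.65) and S1 (-0.52). Same-numbered relations called were 1 in water and 10 in fentanyl libraries alone, where the mean r of Cry2 was -0.0055. Over all genes, VTA males had 4355 calls, 503 with GC offsets, 29 with the block as well and 2660 without male water 4. NAc males had 129, 920 with DESeq2, 0 with the block and 0 without male water 3. S1 females had 28, 406 with DESeq2, 0 with exon length offsets and 0 to 220 without 1 library. PrL on average had 133, 778 with DESeq2, 25 with the block, 0 with the share of reads outside exons as a covariate and 38 without female water 5. The cause of these changes was not tested.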
